A study of Mus musculus with 6 samples.

Results

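The genes described here carry a cell from the end of DNA replication through mitosis, and they were read in mouse leukaemia cells that had or lacked AES. Of 38 listed genes of the G2 phase and mitosis, 37 had a row under their own symbol on the array, out of 19938 genes measured in all. The exception was Ccnb1, one of the mitotic cyclins, which had no such row and so has no array value here; it enters the promoter comparison only. The list was chosen with earlier results of these data known. Rows were matched to its genes by symbol alone, and where a gene had several rows the one with the highest mean over the 6 arrays was used. This choice mattered for Top2a only, whose other row lay between 5.67 and 6.38 (log2), below the median of every array.

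The cells came from leukaemias driven by AML1-ETO9a, a shortened splice form of the t(8;21) fusion that is leukaemogenic in mice. C57BL/6 fetal liver cells of embryonic day 14.5, either wildtype for AES or with floxed AES alleles, were transduced with AML1-ETO9a and transplanted, and per the labels the recipients received tamoxifen 4 weeks later to delete the floxed gene. AES is a short Groucho-family co-repressor, now named Tle5. GFP-positive cells, which carry the fusion, were sorted from spleen, and total RNA of 3 AES wildtype and 3 AES knockout samples was read on 1 array each. Wildtype cells were taken at death from leukaemia, whereas knockout cells were taken when the experiment ended, so genotype and time of collection cannot be told apart. The sources used here name neither the recombinase driver nor the number of clones in a sample, and they do not say whether samples within a group were from different animals, so a p-value measures only the spread between these samples.

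The targeted gene, Tle5, lay between 11.10 and 11.13 on the wildtype arrays and between 8.80 and 9.33 on the knockout arrays. The array medians over all genes ran from 6.70 to 6.80, and each member's 6-array mean lay above them, between 8.53 and 12.22. Of 16 markers of myeloid blasts, 4 lay above the array median on all arrays and 3 below it on all arrays. Kit was among those above (10.60 to 11.80), while Cd34 ran from 5.33 to 9.87 and Mpo from 6.08 to 10.08. All 8 measured erythroid markers were also above the array median on every array. The sorted cells thus differed from array to array in lineage genes.

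Entry into mitosis is switched on by CDK1 with cyclins A and B, and exit from it by the anaphase-promoting complex, which tags the cyclins for destruction. In between, the kinetochores attach chromosomes to the spindle, a checkpoint holds anaphase back until every chromosome is attached, condensins compact the chromosomes, and motor proteins and the midzone divide the cell. Most of these genes are transcribed late in the cycle and kept silent in resting cells, so their summed RNA is widely used as a gauge of how many cells in a population are dividing. In bulk RNA, fewer dividing cells and less of these RNAs per cell cannot be told apart.

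Mitotic genes were not separated by genotype. They were set apart by 1 array. Knockout replicate 3 held the lowest value of 36 of the 37 members, and its level lay a median of 1.75-fold under the mean of the other 5 arrays (log2 difference -0.81), with single members from 1.12-fold for Kif23 to 2.48-fold for Nuf2. On the other 5 arrays the members stayed close together, with a median range of 0.36. For 31 of 37 members (83.8%) the step from knockout replicate 3 up to the next lowest array was wider than this whole range over the other 5. The same held for 4.48% of all genes and for 8.84% of the 7547 genes with a mean above 8. It also held for 47.1% of 70 DNA replication genes and 41.3% of 138 other mitotic genes, both lists described below. Knockout replicate 3 was the lowest array for 24.7% of all genes and for 30.0% of those with a mean above 8. Wildtype replicate 1 was the lowest for 26.0% of all genes. The figures for knockout replicate 3 describe 1 array and carry no test. The mean over the members was 10.28, 10.14 and 10.33 for wildtype cells, in order of replicate, and 10.27, 10.41 and 9.49 for knockout cells. Knockout replicate 2, of the same genotype, was at the other end. It held the highest value of 24 of 37 members (64.9%), against 11.1% of all genes and 17% of those with a mean above 8.

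**Figure D1:**
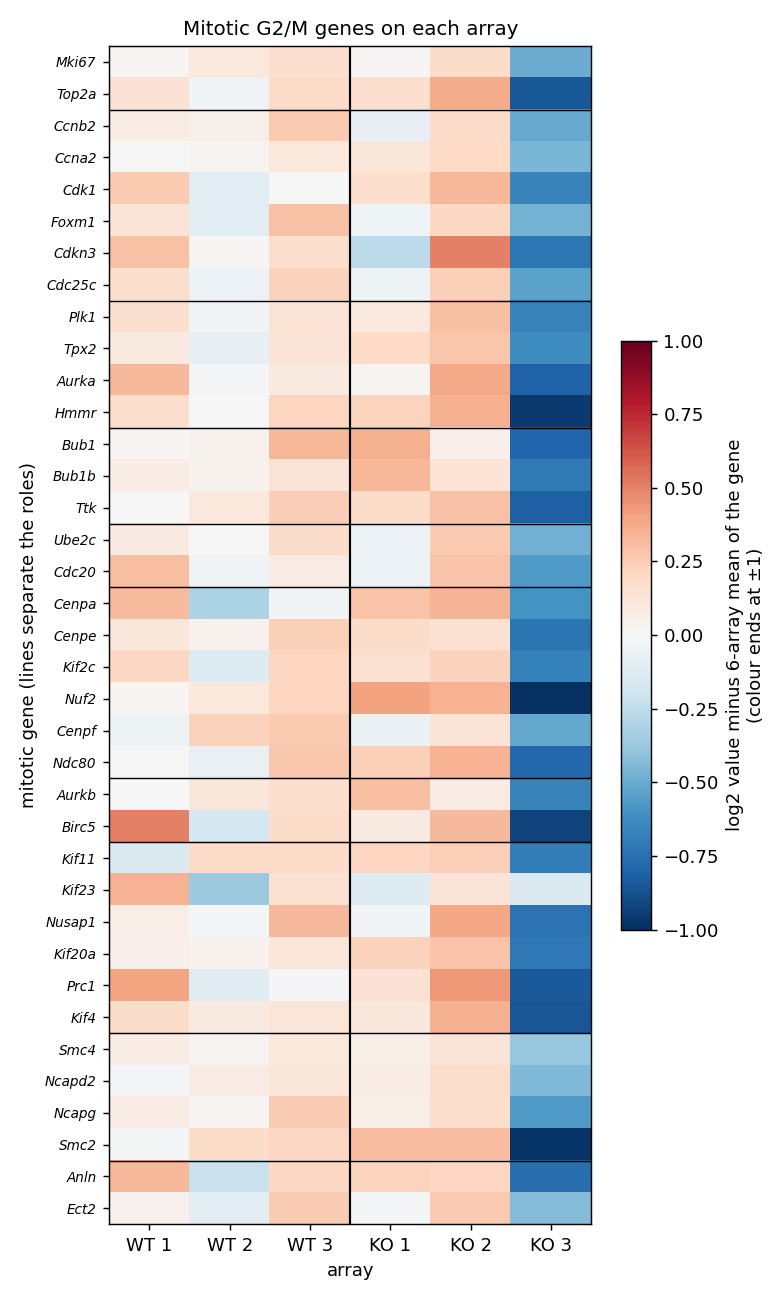
Each row is 1 of the 37 measured mitotic genes and each column 1 array (WT, AES wildtype; KO, AES knockout); colour gives the log2 value minus the gene's 6-array mean. The last column, knockout replicate 3, is blue in every row and holds the lowest value of 36 of 37 genes, with Kif23 near the mean. Of the other knockout columns, replicate 2 holds the highest value of 24 genes.

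Between the genotypes, no member passed the test. With limma and Benjamini-Hochberg adjustment over all 19938 genes, 0 of 37 members were higher and 0 lower in knockout cells at 0.05, against a background of 0% in each direction, and every member had an adjusted p of 1.00. None had an unadjusted p under 0.05 (281 genes higher and 224 lower over the whole array), and the smallest was 0.176, for Cenpf. A fit without variance moderation called 0 members as well. The wildtype and knockout values overlapped for all 37 members, where 3.65% of all genes lay wholly higher and 3.51% wholly lower in knockout cells. The means were nevertheless lower in knockout cells for 36 of 37 members, with a median log2 difference of -0.20, while 49.1% of all genes had a lower mean and their median difference was 0.003. Standard errors of the members ran from 0.15 to 0.41, so the differences, from -0.34 to 0.02, were smaller than their own SE for 28 of 37 members. Without knockout replicate 3 the count turned over: 8 members had a lower mean and 29 a higher one, with a median of 0.09. Of all genes, 43.9% then had a lower mean, and their median difference was 0.02. Without knockout replicate 2 all 37 members were lower, with a median of -0.37, against 47.1% of all genes. The members also spread more among the knockout arrays, with a median SD of 0.52 (n = 3) against 0.13 (n = 3) among the wildtype arrays. The knockout SD was the larger for 36 of 37, against 54.7% of all genes and 62.5% of those with a mean above 8. It was also the larger for 91.4% of the DNA replication genes and 89.1% of the other mitotic genes.

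**Figure D2:**
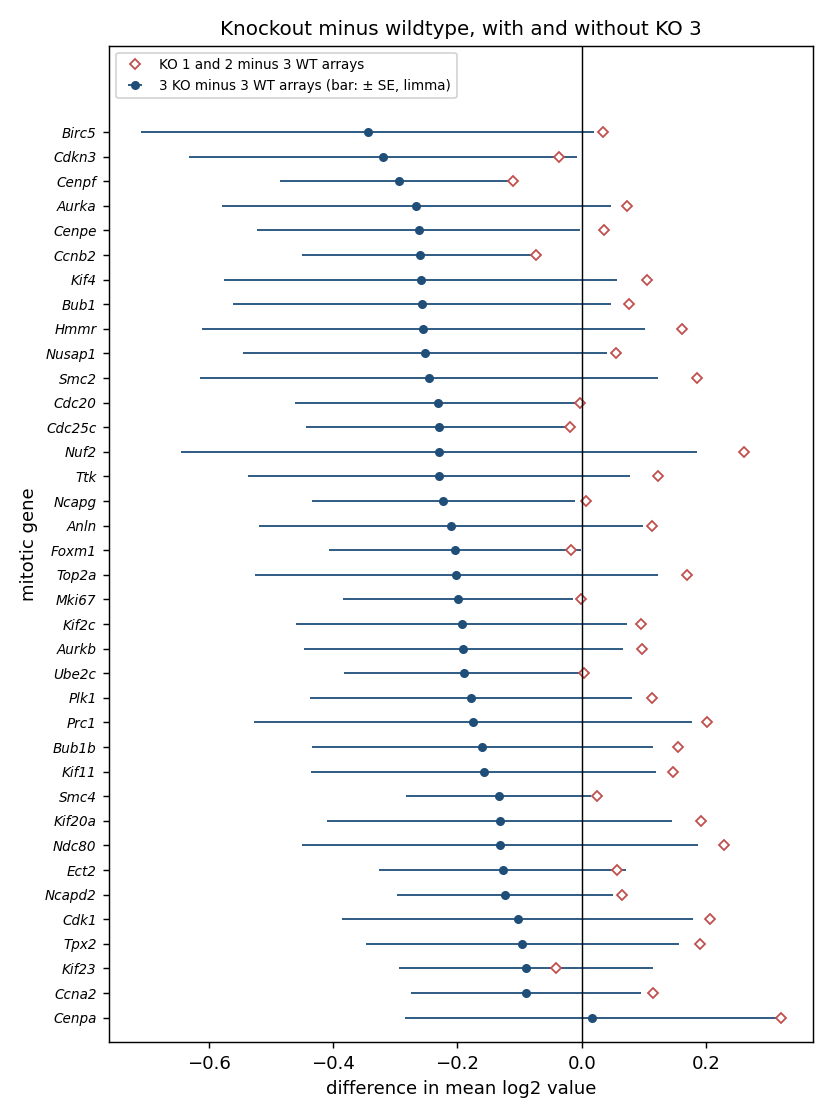
Each row is a mitotic gene; the horizontal axis is the difference in mean log2 value. Filled circles give the 3 knockout minus the 3 wildtype arrays with the limma SE as a bar, and open diamonds give knockout replicates 1 and 2 minus the 3 wildtype arrays. The circles lie left of 0 for 36 of 37 genes, and the diamonds lie right of 0 for 29.

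The promoters of the members are shown for the motifs they share. Late cell cycle genes are known for a pair of elements near the start of transcription: the cell cycle genes homology region (CHR), bound by the MuvB complex with its DREAM or B-MYB and FOXM1 partners, and the CCAAT box, bound by NF-Y. RefSeq promoter windows (GRCm38.p6, 250 bases before to 50 after the start) were found for 31 of the 38 listed genes, Ccnb1 included, in 33 windows. Ccna2, Cdc25c, Foxm1, Tpx2, Aurkb, Kif20a and Smc4 had none. The motifs TTTGAA and TTCGAA for CHR and CCAAT for the box were searched on both strands. TTCGAA is its own reverse complement, and no CHR letters overlap those of CCAAT. A CHR motif was in 28 of 33 windows (84.8%), against 16.5% of 19177 windows of genes tested on the arrays and 19.2% of all 32851 windows. A CCAAT motif was in 27 of 33 (81.8%, against 37.4% of the windows of tested genes), and both were in 25 (75.8%, against 6.56%). In 135 windows of other mitotic genes, a second list described below, the shares were 45.2% for CHR, 60.7% for CCAAT and 31.1% for both. The 150 bases before the start follow, lower case with CHR and CCAAT motifs (or their reverse complements TTCAAA and ATTGG) in capitals. Cdk1, Ube2c and Top2a show the pair of elements. Nuf2 is shown as the member furthest below the other arrays on knockout replicate 3, and Kif23 as the least.
Cdk1 (chr10:69352913-69353062, minus strand): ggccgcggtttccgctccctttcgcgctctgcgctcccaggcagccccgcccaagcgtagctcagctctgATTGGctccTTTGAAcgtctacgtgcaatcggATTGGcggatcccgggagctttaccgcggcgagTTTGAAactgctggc
Ube2c (chr2:164769779-164769928, plus strand): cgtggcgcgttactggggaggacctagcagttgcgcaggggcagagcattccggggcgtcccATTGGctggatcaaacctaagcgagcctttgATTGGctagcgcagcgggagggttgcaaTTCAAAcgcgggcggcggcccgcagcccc
Top2a (chr11:99024190-99024339, minus strand): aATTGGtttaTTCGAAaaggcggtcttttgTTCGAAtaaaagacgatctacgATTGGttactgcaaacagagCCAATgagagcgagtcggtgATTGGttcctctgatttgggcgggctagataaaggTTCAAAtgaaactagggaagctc
Nuf2 (chr1:169531465-169531614, minus strand): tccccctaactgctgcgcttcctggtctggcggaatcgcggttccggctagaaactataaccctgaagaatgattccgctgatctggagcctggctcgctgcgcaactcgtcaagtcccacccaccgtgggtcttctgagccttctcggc
Kif23 (chr9:61946800-61946949, minus strand): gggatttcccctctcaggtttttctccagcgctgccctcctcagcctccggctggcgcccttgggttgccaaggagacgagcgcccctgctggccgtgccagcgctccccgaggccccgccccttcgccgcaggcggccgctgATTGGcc

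Upstream of its start Top2a held 3 CHR and 4 CCAAT matches in these 150 bases, Cdk1 held 2 of each, and Ube2c 1 CHR and 2 CCAAT matches. Nuf2, Birc5 and Nusap1 had neither motif in the 300-base window. They were 2.48-fold, 2.16-fold and 1.85-fold lower on knockout replicate 3. Kif23, the member that was least low there, held both motifs in its window, with the CHR after the start. A match is a description of these letters and says nothing of binding. A link between the motifs and the array values was not tested. Among the DNA replication genes, 21.4% of 70 windows held a CHR motif and 57.1% a CCAAT motif.

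**Figure D3:**
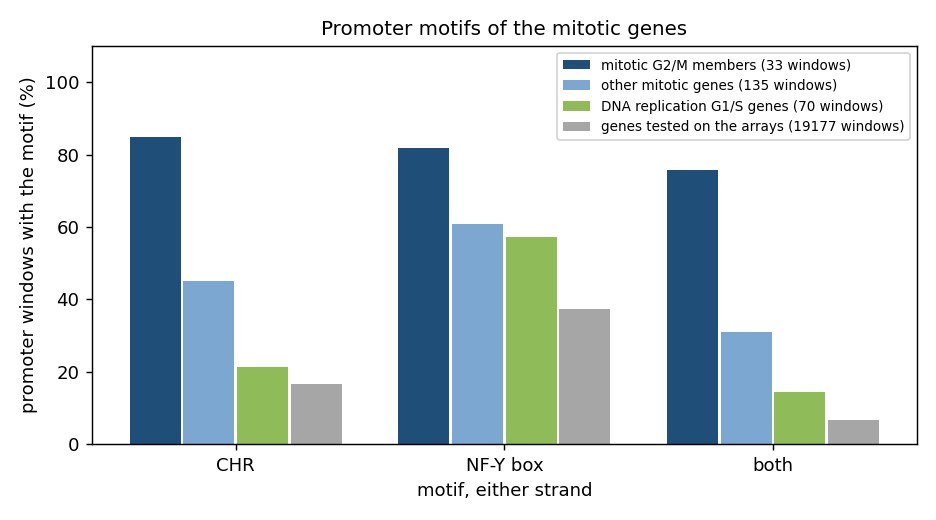
Bars give the percent of promoter windows that hold a CHR motif, a CCAAT motif (labelled by its factor, NF-Y) or both, for the mitotic genes, other mitotic genes, DNA replication genes and all genes tested on the arrays. The mitotic genes stand at 84.8%, 81.8% and 75.8%, the other mitotic genes at 45.2%, 60.7% and 31.1%, and the genes tested at 16.5%, 37.4% and 6.56%.

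The broadest markers came first. Mki67 encodes Ki-67, a coat of mitotic chromosomes and the standard proliferation marker, and it was the brightest member. In order of replicate, as for every gene that follows, it read 12.25, 12.33 and 12.39 in wildtype and 12.24, 12.41 and 11.73 in knockout cells, a log2 difference of -0.20 (SE 0.19). Only knockout replicate 3 lay outside the wildtype range by more than 0.02, and the difference was -0.0009 without it. Top2a, the topoisomerase that untangles sister chromatids, measured 11.48, 11.30 and 11.52 in wildtype and 11.50, 11.70 and 10.49 in knockout cells. On knockout replicate 3 it lay 2.02-fold under the mean of the other arrays.

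The cyclin and CDK switch was represented by 6 measured genes, each lowest on knockout replicate 3, with a median difference from the other arrays of -0.63. Cdk1, the kinase that drives mitotic entry, had values of 10.36, 9.99 and 10.10 in wildtype and 10.28, 10.44 and 9.43 in knockout cells. Its knockout arrays 1 and 2 lay inside the wildtype range or just above it, and the log2 difference was -0.10 (SE 0.28). The cyclins Ccnb2 and Ccna2, which activate CDK1, differed less from array to array. Ccnb2 read 11.97, 11.95 and 12.15 in wildtype and 11.82, 12.09 and 11.39 in knockout cells (difference -0.26, SE 0.19), and here knockout replicate 1 was also below each wildtype array. For Ccna2 the values were 11.81, 11.83 and 11.92 against 11.93, 12.01 and 11.35, so knockout replicates 1 and 2 lay above all wildtype arrays and replicate 3 below them. Foxm1, the transcription factor that activates many G2/M genes, measured 9.17, 8.93 and 9.33 in wildtype and 9.001, 9.25 and 8.57 in knockout cells (difference -0.20, SE 0.20). Without knockout replicate 3 the differences of Ccnb2 and Foxm1 were -0.073 and -0.018. Foxm1 was 1.48-fold lower on knockout replicate 3, against the 1.75-fold of the median member. Cdkn3, a phosphatase that acts on CDKs, was the member with the widest range over the other 5 arrays (0.77): 9.11, 8.83 and 8.99 in wildtype and 8.56, 9.32 and 8.10 in knockout cells. Its 3 knockout values straddled those of wildtype cells. Cdc25c, the phosphatase that switches CDK1 on, had a difference of -0.23.

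The mitotic kinases and spindle pole genes behaved alike. Plk1, the polo kinase of centrosome maturation and mitotic exit, read 10.92, 10.74 and 10.90 in wildtype and 10.86, 11.07 and 10.10 in knockout cells, with a difference of -0.18 (SE 0.26). Hmmr, which helps to focus spindle poles, lay at 9.87, 9.69 and 9.91 in wildtype and at 9.92, 10.05 and 8.74 in knockout cells. Its knockout replicates 1 and 2 lay above every wildtype array, and replicate 3 was 2.22-fold under the mean of the other arrays. Aurka, the spindle pole kinase, and its activator Tpx2 had differences of -0.27 and -0.10. They were 1.96-fold and 1.67-fold lower on knockout replicate 3.

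The 3 spindle checkpoint genes were each lowest on knockout replicate 3, with a median difference of -0.95 from the other arrays. Bub1, a checkpoint kinase at kinetochores, measured 10.78, 10.80 and 11.09 in wildtype and 11.12, 10.81 and 9.97 in knockout cells (difference -0.26, SE 0.30). The highest array was knockout replicate 1, as it was for Bub1b, which encodes BubR1 of the checkpoint complex. Ttk, the MPS1 kinase that starts checkpoint signalling, was lowest on knockout replicate 3 by 0.81 against the next array. Downstream of the checkpoint, Ube2c, the ubiquitin-conjugating enzyme of the anaphase-promoting complex, read 9.87, 9.78 and 9.96 against 9.71, 10.03 and 9.30 (difference -0.19, SE 0.19). The complex's activator Cdc20 had a difference of -0.23. Without knockout replicate 3 these differences were 0.003 for Ube2c and -0.004 for Cdc20.

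Centromere and kinetochore genes held both the extreme and the exception. Nuf2, a subunit of the NDC80 complex that grips microtubules, measured 9.38, 9.47 and 9.58 in wildtype and 9.77, 9.71 and 8.27 in knockout cells. Knockout replicates 1 and 2 lay above all 3 wildtype arrays while replicate 3 lay 1.11 below the lowest other array, so that the mean difference was only -0.23 (SE 0.41). Its partner Ndc80 was 1.92-fold lower on knockout replicate 3. Cenpa, the histone H3 variant that marks centromeres, was the 1 member with a higher knockout mean, at 11.12, 10.49 and 10.77 in wildtype and 11.08, 11.14 and 10.20 in knockout cells (difference 0.02, SE 0.30). That sign turned with quantile normalization (-0.021). Cenpf, a large kinetochore and nuclear matrix protein of G2, read 9.28, 9.56 and 9.59 against 9.26, 9.46 and 8.81, a difference of -0.29 (SE 0.19). It was 1 of 8 members whose knockout mean stayed lower without replicate 3, at -0.11. The kinetochore motor Cenpe and the microtubule depolymerase Kif2c had differences of -0.26 and -0.19.

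Of the chromosomal passengers, which correct attachments and guide cytokinesis, Aurkb encodes the kinase and Birc5 the subunit survivin. Aurkb had values of 11.34, 11.45 and 11.51 in wildtype and 11.64, 11.41 and 10.67 in knockout cells, so its knockout arrays included both the highest and the lowest value. Birc5 measured 9.75, 9.07 and 9.43 in wildtype and 9.34, 9.57 and 8.32 in knockout cells. It had the largest mean difference of the members, -0.34 (SE 0.36), which was no larger than its error, and its wildtype values alone spanned 0.68.

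The spindle motors and midzone genes held the only member that was not lowest on knockout replicate 3. Kif23, the MKLP1 kinesin of the central spindle, measured 11.02, 10.29 and 10.82 in wildtype and 10.54, 10.80 and 10.52 in knockout cells. Wildtype replicate 2 was its lowest array, and the SD was 0.37 (n = 3) in wildtype against 0.15 (n = 3) in knockout cells, the reverse of every other member. Kif11, the Eg5 motor that pushes spindle poles apart, read 11.02, 11.35 and 11.36 against 11.38, 11.40 and 10.47 (difference -0.16, SE 0.28). The midzone bundler Prc1, the chromokinesin Kif4, the spindle protein Nusap1 and the MKLP2 motor Kif20a were 2.01-fold, 2.04-fold, 1.85-fold and 1.81-fold lower on knockout replicate 3. Kif23 and Kif20a, which both act at the midzone, thus differed in size there.

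Condensin subunits split by size. Smc4, a core ATPase of both condensins, was the steadiest member, with 11.10, 11.06 and 11.14 in wildtype and 11.09, 11.16 and 10.65 in knockout cells, a range of 0.10 over the first 5 arrays. Its partner ATPase Smc2 lay 2.27-fold lower on knockout replicate 3, against 1.37-fold for Smc4, 1.44-fold for Ncapd2 and 1.61-fold for Ncapg. In cytokinesis, Anln encodes anillin, the scaffold of the contractile ring, and read 10.52, 9.97 and 10.39 against 10.41, 10.40 and 9.44 (difference -0.21, SE 0.31). Ect2, the exchange factor that activates RhoA at the cell equator, had a difference of -0.13 and was 1.43-fold lower on knockout replicate 3. For both genes the lowest of the other arrays was wildtype replicate 2.

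Other genes of mitosis, taken from a second list of 145 of which 138 were measured, showed the same low array in part. No gene of this list passed the test (0 at an unadjusted p under 0.05), 96 had a lower mean in knockout cells, and the median difference was -0.09. Knockout replicate 3 was lowest for 107 of them, with a median difference of -0.53 from the other arrays. Grouped by role after their values were seen, 29 of 31 kinetochore and centromere partners and 7 of 7 further kinesins were lowest there, with medians of -0.65 and -0.88. Medians closer to the other arrays were found for the 12 subunits of the anaphase-promoting complex (6 lowest, median -0.16) and the 8 cohesin genes (4 lowest, median -0.20). The same held for the 5 MuvB subunits (2 lowest, median -0.006). Single genes of these groups reached -0.43, -0.62 and -0.55, in that order. Shcbp1, a midbody protein, had the widest gap of the list, with 9.12, 8.81 and 9.24 in wildtype and 8.29, 9.07 and 4.96 in knockout cells. Its value on knockout replicate 3 lay below the array median, with no detection call, so no fold is given. With the smallest unadjusted p after limma in each direction, Stag2, Wapl and Nek7 had differences of 0.15, 0.11 and 0.19, and Anapc13, Troap and Shcbp1 of -0.22, -0.25 and -1.61 (adjusted p = 1.00 for each).

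DNA replication genes, which act earlier in the cycle, were low on the same array. Of 70 measured, 60 were lowest on knockout replicate 3, with a median difference of -0.58 from the other arrays, against -0.81 for the mitotic genes. Their mean deviation was between -0.08 and 0.24 on the first 5 arrays and -0.50 on knockout replicate 3. Between genotypes, 50 had a lower mean (median -0.04), 0 passed and 0 had an unadjusted p under 0.05. Without knockout replicate 3 the median was 0.16. Pole, Tyms and Timeless, of DNA synthesis and fork protection, had differences of -0.24, -0.35 and -0.25, and Ccnd3, E2f3 and Ccnd2 of 0.28, 0.22 and 0.16 (limma adjusted p = 1.00 for each). The 17 measured genes that restrain the cycle, such as CDK inhibitors and pocket proteins, showed no common shift on that array: 4 were lowest and 3 highest there, with a median of 0.01. Between genotypes 0 of them passed. At an unadjusted limma p under 0.05, 2 were higher and 1 lower in knockout cells (281 and 224 of all 19938 genes). The groups did not overlap for 2 higher and 1 lower (3.65% and 3.51% of all genes).

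Markers of other cell types also stood at different levels on knockout replicate 3. Of 12 macrophage markers 8 were highest there. The mean level of the 12 was 8.39, against 6.56 to 7.63 on the wildtype arrays and 6.20 and 6.74 for knockout replicates 1 and 2. The complement genes C1qa and C1qb were at 7.98 and 9.58 there, against at most 7.40 and 9.15 elsewhere, while Adgre1, a macrophage surface receptor, was at 6.92, inside its range of 5.25 to 7.75. Spic, the transcription factor of red pulp macrophages and named after its values were seen, was at 8.63 there and between 5.25 and 7.13 elsewhere. Of 11 B cell markers 8 were highest there, at a mean level of 7.05 (5.81 to 6.68 elsewhere), but 6 of the 11 lay below the array median on all arrays. Of 8 erythroid markers 5 were lowest there, and their mean level was 9.34 against 9.69 to 11.31 on the other arrays. Of 16 neutrophil markers 11 were highest there, with a mean level of 8.82. In order of replicate their level was 8.48, 7.22 and 5.45 in wildtype cells, and knockout replicates 1 and 2 had 5.41 and 8.61. Of 12 T and NK cell markers 6 were lowest on knockout replicate 3 and 1 highest. Their mean level was 5.85 on that array and 5.67 to 6.24 on the others, and 9 of the 12 lay below the array median on every array. Megakaryocyte and mast cell markers had mean levels of 6.49 and 9.38 on knockout replicate 3, against 6.57 to 7.01 and 7.66 to 10.80 elsewhere. Of the 16 myeloid blast markers 4 were highest there, and their mean level was 8.78, against 7.33 to 8.80 elsewhere. The part of these cell types in the low mitotic values was not tested.

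**Figure D4:**
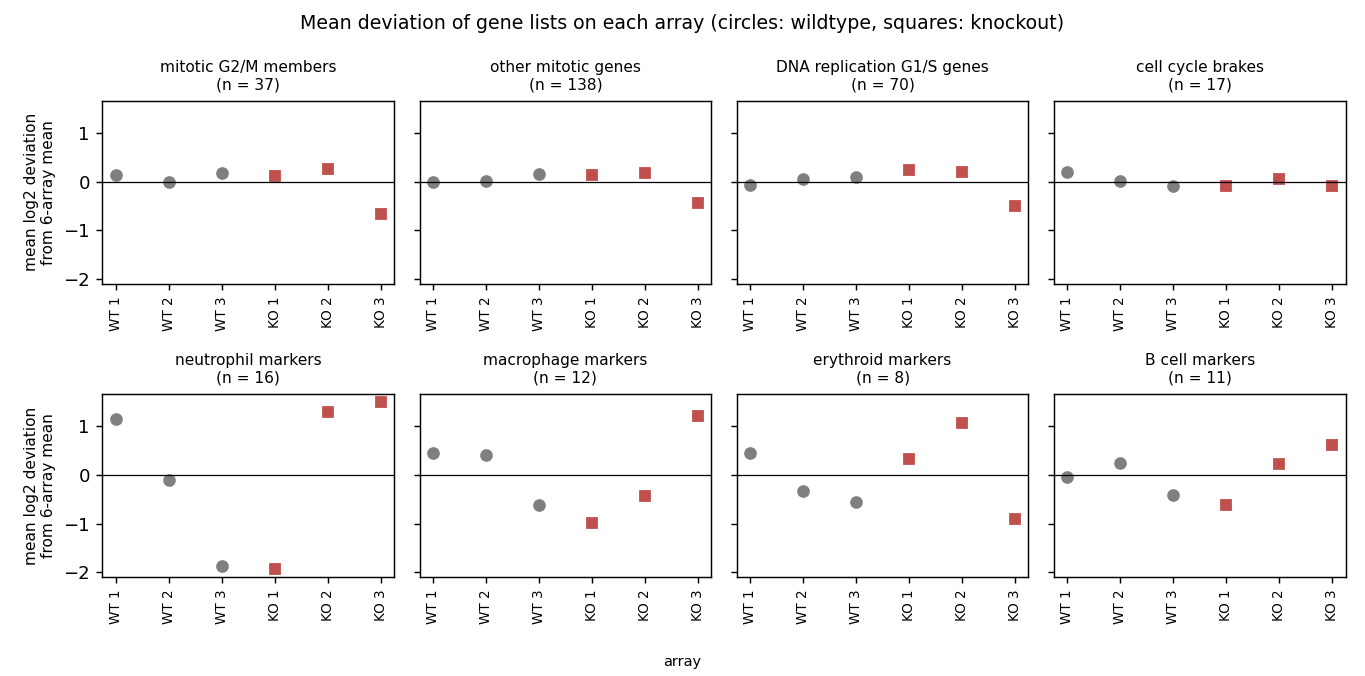
Each panel is a gene list and each point an array (circles wildtype, squares knockout); the vertical axis is the mean over the list of the log2 value minus the gene's 6-array mean. The 37 mitotic genes lie between -0.01 and 0.26 on 5 arrays and at -0.67 on knockout replicate 3, where replication genes (-0.50) and erythroid markers (-0.91) are also lowest and macrophage (1.21) and neutrophil markers (1.49) highest.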

How the data were processed

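RNA of 6 samples was measured on 1 array each, and the authors deposited 1 table of values on a log2 scale. The base was taken as 2 from their range (2.67 to 14.4), and how background, probe summary and normalization were handled is not given in the sources used here. Of 35512 rows, 1 had no value and 21789 carried 1 symbol in the platform annotation. The row with the highest 6-array mean stood for each of 19938 genes. There were no detection calls.

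Knockout and wildtype arrays were compared in limma 3.58.1 (R 4.3.3; lmFit and eBayes, two-sided, no block) with Benjamini-Hochberg adjustment over all genes at 0.05. The fit was tested on simulated data. Exact permutation of 3 against 3 cannot give a p below 0.1, so none is quoted. Groups came from the sample labels.

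The members and lists were chosen with earlier results of these data known, and roles within the second mitotic list after its values were seen. Values on every array are given for the brightest member of each role, the 3 largest differences each way, the 3 widest ranges, and Mki67, Cdk1 and Foxm1, and for Top2a as an addition. Of the other mitotic genes and the DNA replication genes, the 3 smallest p in each direction are named, and up to 3 genes of a marker list. Genes that restrain the cycle are given as counts only.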

Additional observations from a re-analysis of the deposited data

How the results depend on the processing

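The comparison was repeated with median centring, with quantile normalization, without dim genes, with trended robust eBayes, without variance moderation, with rows of a gene averaged, with array weights, with the replicate block and with each array left out. No member passed under any of them. The array weights, in order of replicate, were 0.64, 1.61 and 1.15 for wildtype and 0.67, 2.19 and 0.57 for knockout arrays. With these weights 19 of 37 members had a lower mean (median -0.0067), and the medians of other mitotic and replication genes became 0.027 and 0.037. Cdk1 (0.14), Plk1 (0.038), Anln (0.028), Cdkn3 (0.031), Ccna2 (0.026), Kif23 (0.094) and Hmmr (0.0068) then had higher means. Quantile normalization gave Cenpa -0.021.

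With single arrays left out, 0 to 3 genes of the whole array passed as lower in knockout cells (Tle5, Kdm5d and Uty without knockout replicate 2). Kdm5d and Uty are genes of the Y chromosome, and whether the samples differed in sex was not tested. The members with a lower mean numbered 8 to 37, and the median ran from -0.37 to 0.095 for the members, from -0.20 to 0.11 for other mitotic genes and from -0.16 to 0.16 for replication genes. In each case the upper end came without knockout replicate 3. Single members ran from -0.30 to 0.21 for Cdk1, -0.375 to 0.11 for Plk1, -0.50 to 0.075 for Bub1, -0.36 to 0.0035 for Ube2c, -0.15 to 0.32 for Cenpa, -0.39 to 0.10 for Aurkb, -0.32 to 0.15 for Kif11, -0.23 to 0.024 for Smc4, -0.37 to 0.11 for Anln, -0.59 to 0.033 for Birc5, -0.21 to 0.115 for Ccna2, -0.30 to 0.063 for Kif23, -0.49 to 0.26 for Nuf2 and -0.495 to 0.16 for Hmmr. Without a change of sign, Ccnb2 ran from -0.42 to -0.073, Foxm1 from -0.36 to -0.018, Mki67 from -0.34 to -0.00092, Cdkn3 from -0.65 to -0.038 and Cenpf from -0.44 to -0.11.

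Same-numbered arrays did not deviate together (correlations over genes of -0.26, -0.23 and 0.0746 for numbers 1 to 3). Arrays with different numbers had correlations from -0.17 to 0.34. These values cannot show whether the numbers mark a shared animal or day, which is not stated. With the replicate block the members' median stayed at -0.20, 36 had a lower mean and 0 passed. The number of arrays, 3 a group, limits the precision.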
